A study of Mus musculus with 9 samples.

Results

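miR-92a is a microRNA that the mouse genome encodes at 2 loci, Mir92-1 on chromosome 14, the last hairpin of the miR-17~92 cluster, and Mir92-2 on the X chromosome, in a paralogous cluster. Its members here were all rows of the deposited table named mmu-miR-92a-3p, the guide strand that both hairpins encode, or mmu-miR-92a-1-5p, the partner arm that only Mir92-1 encodes. These were 3 of 1046 rows: miR-92a-3p was listed 2 times with different levels, and miR-92a-1-5p 1 time. The rows of miR-92a-3p were kept apart and are called the higher and the lower row by their total reads over all libraries. The sources used here give neither which of them the submitters drew from which locus nor how they counted reads that map to both loci.

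Small RNA had been sequenced from mouse embryos at embryonic day 9.5, after the heart and the tail bud were dissected off, with 1 library for each of 8 genotypes and no replicate of any. In 3 libraries miR-92 was deleted: the full deletion of the miR-17~92 cluster, ΔmiR-17,18,92 (titled as the embryo that keeps only miR-19) and ΔmiR-92. In the other 5 it was intact: ΔmiR-17,18, ΔmiR-17, ΔmiR-18, ΔmiR-19 and wild type. All were labelled female, the embryos came from timed matings of miR-17~92 mutant animals, and the labels do not say whether a library held 1 embryo or a pool, nor how the deletions were made. A further library, of reads that could not be assigned to a genotype, was left out of all comparisons.

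A microRNA hairpin is cut into a short duplex, of which usually 1 strand, the guide, is loaded into an Argonaute protein and the partner strand is degraded. The guide finds messenger RNAs mainly through its seed, bases 2 to 8, so microRNAs that share a seed form a family with overlapping targets. The miR-17~92 cluster is known for its part in the growth of embryonic and tumour cells, and miR-92a in mammals is known for restraining vessel growth in endothelial cells and for targets such as the integrin subunit Itga5.

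The sequences are shown because the mature strand is the same at both loci and the partner arms are not. The mature sequences come from RefSeq (GRCm38.p6), with the seed in capitals. miR-92a-3p has 1 mature sequence of 21 bases at both loci, whereas the partner arms of the 2 hairpins differ at 5 of 22 compared positions, 1 of them in the seed region.
mmu-miR-92a-3p: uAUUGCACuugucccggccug
mmu-miR-92a-1-5p: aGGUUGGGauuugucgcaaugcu
mmu-miR-92a-2-5p: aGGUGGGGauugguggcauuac

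The 2 hairpins are printed with mature miR-92a-3p in capitals. The longest stretch that they share is 22 bases long and holds the 21 bases of the mature strand and 1 base before it, so a read of exactly the mature strand matches both loci alike. The hairpins differ from the first base after the mature strand, so a read that ends further on could be told apart, as could a read of a whole partner arm.
Mir92-1: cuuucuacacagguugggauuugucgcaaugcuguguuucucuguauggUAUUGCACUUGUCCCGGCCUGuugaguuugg
Mir92-2: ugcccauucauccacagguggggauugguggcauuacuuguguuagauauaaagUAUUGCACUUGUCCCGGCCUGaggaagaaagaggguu

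On GRCm38, Mir92-1 (80 bases) lies at chr14:115044427-115044506 on the plus strand, inside an exon (115043271 to 115046727) of the long non-coding host gene Mir17hg (GENCODE M21). Its mature miR-92a-3p lies at chr14:115044476-115044496 and its miR-92a-1-5p at chr14:115044437-115044459. Mir92-2 (91 bases) lies at chrX:52741838-52741928 on the minus strand and overlaps no other gene of that annotation. Its mature miR-92a-3p lies at chrX:52741854-52741874 and its miR-92a-2-5p at chrX:52741892-52741913. These positions were read from GRCm38 and not from mm9, the build the submitters used.

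After repeated rows of near-equal total were dropped, the genotype libraries held between 6564461 reads in ΔmiR-92 and 18481223 in ΔmiR-18. Levels are in normalised RPM (nRPM, the deposited values brought to 1 common scale). A count of 1 read equalled 0.062 nRPM in the deepest library and 0.157 nRPM in wild type. Intervals are exact at 95% and cover counting error only. A ratio to wild type compares 2 single libraries and has no replicate check, and p-values over libraries rest on the spread among unreplicated libraries whose genotypes differ. The endothelial markers miR-126-3p and miR-126-5p summed to 7371 to 16209 nRPM in the miR-92 deleted libraries and 9863 to 17558 nRPM in the intact ones. Summed levels of the blood list (5 of 5 measured, miR-451a under its older name miR-451) were 1096 to 1619 nRPM in deleted and 1218 to 2013 nRPM in intact libraries, and those of the heart and muscle list (7 of 7), although the heart had been removed, were 3397 to 5226 nRPM in deleted and 2227 to 6128 nRPM in intact ones. The neural list (3 of 3) summed to 1741 to 4290 nRPM in deleted and 2394 to 5132 nRPM in intact libraries, and the epithelial list (5 of 5) to 9377 to 12538 nRPM in deleted and 7745 to 10394 nRPM in intact ones. The ranges of all 5 lists overlapped, no marker was at 0 in all 8 libraries, and their part in the results was not tested. In bulk RNA of the remaining embryo, fewer cells of a type and less RNA per cell cannot be told apart.

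The partner arm of the chromosome 14 hairpin, miR-92a-1-5p, is the member that checks the genotype labels, because its sequence belongs to the deleted hairpin and not to the X-linked one. It had 12 reads in the full deletion, 18 reads in ΔmiR-17,18,92 and 0 reads in ΔmiR-92. It had 4382 reads in ΔmiR-17,18, 22665 in ΔmiR-17, 19938 in ΔmiR-19, 20873 in ΔmiR-18 and 9208 in wild type. The labels and this arm therefore split the libraries the same way, with 3 near 0 and 5 far above.

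In normalised terms, the level of miR-92a-1-5p was 1.26 nRPM in the full deletion, with an interval of 0.651 to 2.2 nRPM. For ΔmiR-17,18,92 it was 1.25 nRPM, with an interval of 0.739 to 1.97 nRPM. In ΔmiR-92, the count of 0 had an upper interval limit of 0.528 nRPM, or 0.0366% of wild type. The intact libraries held 501.8 nRPM in ΔmiR-17,18, 1679 in ΔmiR-17, 2097 in ΔmiR-19, 1302 in ΔmiR-18 and 1442 in wild type. Where miR-92 was deleted the arm averaged 0.836 ± 0.724 nRPM (SD, n = 3), against 1405 ± 588 nRPM (SD, n = 5) where it was intact.

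The higher row of miR-92a-3p, the most abundant member, nearly vanished where the hairpin on chromosome 14 was deleted. It stood at 682.5 nRPM in the full deletion, 545.8 in ΔmiR-17,18,92 and 871.5 in ΔmiR-92. In the intact libraries it stood at 60314 nRPM in ΔmiR-17,18, 116099 in ΔmiR-17, 139080 in ΔmiR-19, 68470 in ΔmiR-18 and 199542 in wild type. The lowest intact library was still far above the highest deleted one.

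By share of all reads, the higher row fell to 0.0720%, 0.0638% and 0.0928% of the full deletion, ΔmiR-17,18,92 and ΔmiR-92 libraries, against 18.0% of the wild-type library. It was the most abundant microRNA of wild type, ΔmiR-17 and ΔmiR-19, the 2nd of ΔmiR-17,18 and the 3rd of ΔmiR-18, while it ranked at position 159 in the full deletion, 179 in ΔmiR-17,18,92 and 143 in ΔmiR-92. The remaining level was above counting error, with 6502, 7878 and 6090 reads, and equalled 0.342%, 0.274% and 0.437% of wild type. The higher row averaged 699.9 ± 164 nRPM where miR-92 was deleted (SD, n = 3), against 116701 ± 56722 nRPM where it was intact (SD, n = 5).

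The lower row of miR-92a-3p did not follow this pattern. It stood at 9800 nRPM in the full deletion, 8491 in ΔmiR-17,18,92 and 14308 in ΔmiR-92. It stood at 10970 nRPM in ΔmiR-17,18, 19243 in ΔmiR-17, 17234 in ΔmiR-19, 13797 in ΔmiR-18 and 22952 in wild type. The groups overlapped, since ΔmiR-92 lay above ΔmiR-17,18 and ΔmiR-18.

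With the hairpin on chromosome 14 deleted, the lower row thus remained among the abundant microRNAs. It held 1.03%, 0.993% and 1.52% of the reads of the full deletion, ΔmiR-17,18,92 and ΔmiR-92, where it ranked at position 24, 23 and 12, against 2.07% and position 8 in wild type. The means were 10866 ± 3052 nRPM where miR-92 was deleted (SD, n = 3) and 16839 ± 4664 nRPM where it was intact (SD, n = 5).

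**Figure D1:**
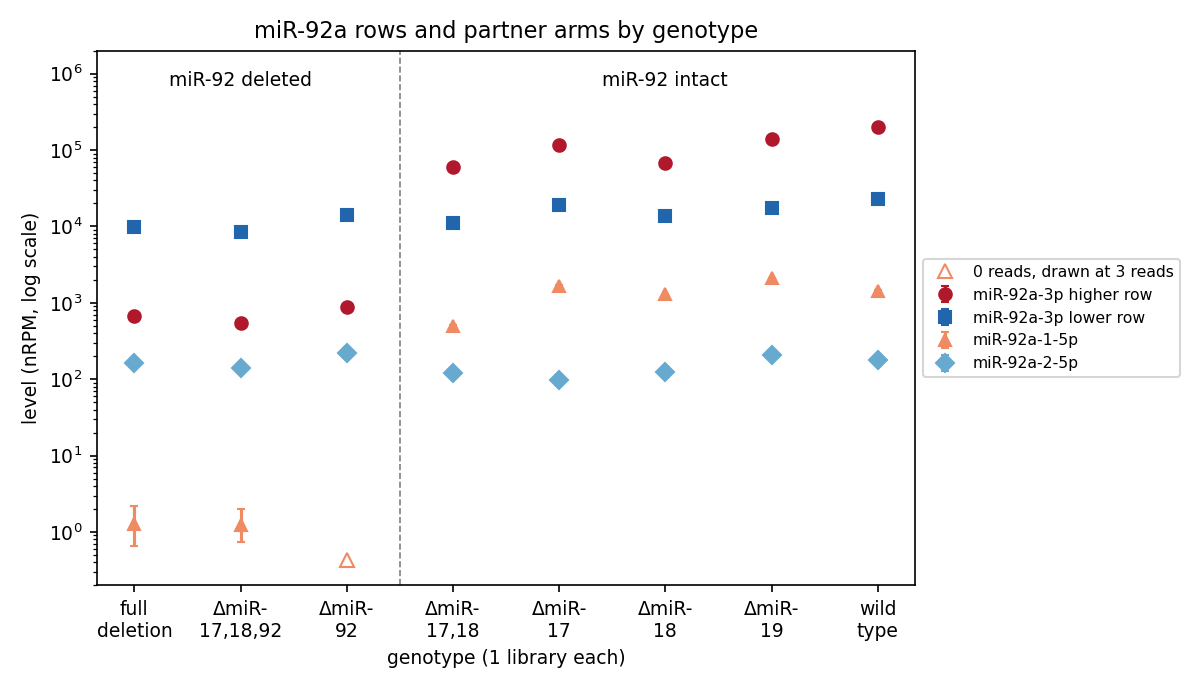
Level of each member and of miR-92a-2-5p, the X-linked partner arm, in nRPM on a log axis, 1 point for each of the 8 libraries with its 95% counting interval, with miR-92 deleted libraries to the left and the 0 reads of ΔmiR-92 drawn as an open triangle at 3 reads. The higher row of miR-92a-3p and miR-92a-1-5p are low in the 3 deleted libraries, while the lower row spans 8491 to 22952 nRPM over all 8 and its groups overlap.

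Across the libraries, the 3 members differed from each other in how the deletion of miR-92 went with their level. By a two-sided exact permutation test over the 56 ways to choose 3 of 8 libraries, the higher row was lower by a mean log2 difference of -7.27 with miR-92 deleted and miR-92a-1-5p by -9.53, each with p = 0.0179, the smallest this design allows. For miR-92a-1-5p, which the deleted hairpin encodes, this result restates the genotype. The deleted hairpin also encodes miR-92a-3p, so the result of the higher row is no independent support either. The lower row differed by -0.62 on the same log2(nRPM + 1) scale, with an exact permutation p of 0.107. None of these can pass adjustment over the 551 microRNAs tested, where the lowest adjusted exact p of any was 0.904. Over those 551, the median difference was 0.03, and 1.63% of them (9) lay wholly below in the deleted libraries; the higher row and miR-92a-1-5p were 2 of the 9.

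A model with 1 additive term for each of the 4 deleted families (limma, Benjamini-Hochberg adjustment over 551 microRNAs) gave the same order. The model left 3 residual degrees of freedom, and its p-values and intervals also draw on the variance of the other microRNAs. Its miR-92 term was -7.02 ± 0.29 (SE, log2) for the higher row, with an adjusted p of 7.26e-06 by limma. For miR-92a-1-5p it was -9.58 ± 0.51 with an adjusted p of 2.76e-05 by limma. This term called 0.363% of the microRNAs tested, which is 2 of 551, and they were these 2 rows. A further 7 had an unadjusted p under 0.05. Since the deleted hairpin encodes miR-92a-1-5p, a call of this arm by any of the tests restates the genotype and is no independent support. The same hairpin encodes miR-92a-3p, so a call of the higher row by any of the tests is no independent support either. With a mean of 0.836 nRPM in the deleted libraries, the arm passed the filter of 10 nRPM only through the intact ones. For the lower row the term was -0.42 ± 0.24, with an adjusted p of 0.990 by limma. Its interval of -0.97 to 0.13 held both 0 and a decrease to about 0.5 of the intact level.

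Tests on the recovered reads called the same 2 rows and no other. edgeR's quasi-likelihood test gave -7.06 for the higher row (adjusted p = 0.000197) and -10.76 for miR-92a-1-5p (adjusted p = 0.00566), and called 0.363%. DESeq2's Wald test gave -7.05 and -11.14 in the same order, and also called 0.363%. Because miR-92a-1-5p had 0 reads in ΔmiR-92, its fitted changes depend on the pseudocount or prior and are no bound.

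The X-linked partner arm miR-92a-2-5p, which is no member, has a sequence that only Mir92-2 of the pair encodes. Whether its level follows that of its hairpin was not tested. It stood at 164.3 nRPM in the full deletion, 139.5 in ΔmiR-17,18,92 and 217.4 in ΔmiR-92. Its intact levels were 121.1 nRPM in ΔmiR-17,18, 98.5 in ΔmiR-17, 205.7 in ΔmiR-19, 124.9 in ΔmiR-18 and 180.9 in wild type. The groups overlapped, and the mean was 173.7 ± 39.8 nRPM where miR-92 was deleted and 146.2 ± 45.0 nRPM where it was intact (SD, n = 3 and 5). Its log2 difference of 0.28 had an exact permutation p of 0.339, and its miR-92 term was 0.41 ± 0.29 (adjusted p = 0.990 by limma).

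Ratios of 2 rows within a library do not depend on how the libraries were scaled. The higher row over the lower row was 0.0696 in the full deletion, 0.0643 in ΔmiR-17,18,92 and 0.0609 in ΔmiR-92. In the intact libraries it was 5.50 in ΔmiR-17,18, 6.03 in ΔmiR-17, 8.07 in ΔmiR-19, 4.96 in ΔmiR-18 and 8.69 in wild type. The order of the 2 rows was thus turned round where the hairpin was gone. Among the 3 deleted libraries the residual of the higher row stayed close to a fixed share of the lower row, at 0.0649 ± 0.0044 (SD, n = 3), against 6.65 ± 1.64 (SD, n = 5) where miR-92 was intact. The mean log2 difference was -6.64 (exact permutation p = 0.0179). Since the deleted hairpin encodes miR-92a-3p, this p-value is no independent support beyond the genotype.

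**Figure D2:**
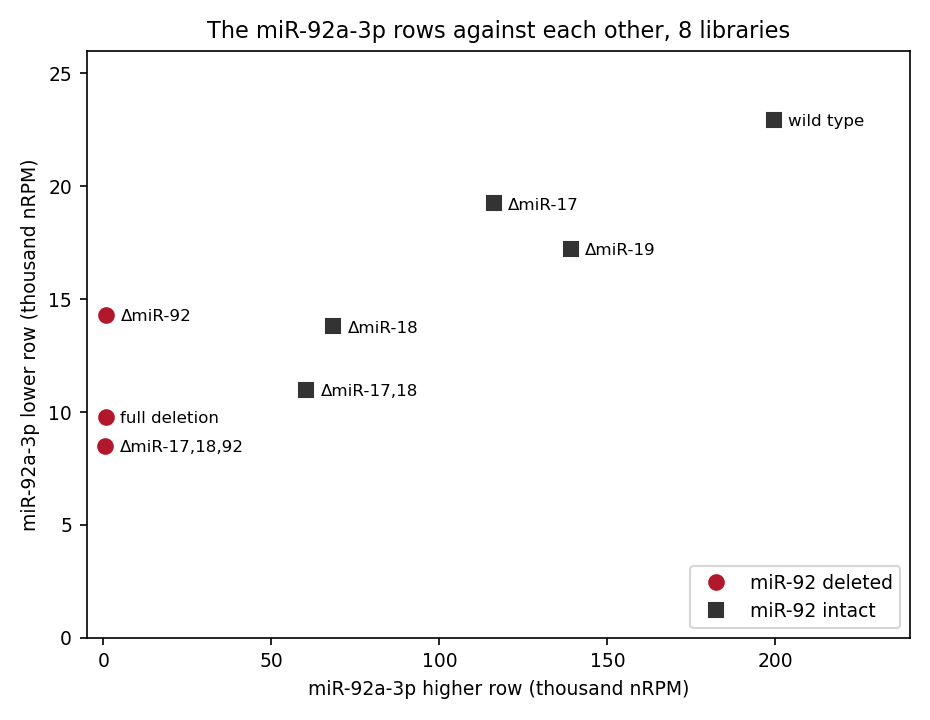
Lower row of miR-92a-3p (vertical) against its higher row (horizontal), both in nRPM on linear axes, 1 point per library, with miR-92 deleted libraries as circles and intact ones as squares. The 3 deleted libraries stand at the left edge, at 545.8 to 871.5 nRPM of the higher row, with lower-row levels that overlap those of the intact libraries.

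Set against the partner arm of Mir92-1, the higher row was relatively less depleted than miR-92a-1-5p. Its ratio to miR-92a-1-5p was 541.8 (310 to 1049) in the full deletion and 437.7 (276.7 to 738.9) in ΔmiR-17,18,92. In ΔmiR-92, where the arm had 0 reads, setting it to 3 reads gave 2030. With miR-92 intact, the ratio was 120.2 in ΔmiR-17,18, 69.1 in ΔmiR-17, 66.3 in ΔmiR-19, 52.6 in ΔmiR-18 and 138.4 in wild type. The deleted libraries lay above all intact ones, also at the lower ends of their counting intervals. The mean log2 difference was 2.27 with 1 nRPM added to each row (exact permutation p = 0.0179), but with 5 nRPM added it was 0.52 (exact permutation p = 0.268). The arm itself stood near 1 nRPM in 2 of the deleted libraries.

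The same comparison for the lower row gave a far wider gap. The lower row over miR-92a-1-5p was 7780 in the full deletion, 6809 in ΔmiR-17,18,92 and 33327 in ΔmiR-92 with the arm set to 3 reads. It was 21.9 in ΔmiR-17,18, 11.5 in ΔmiR-17, 8.22 in ΔmiR-19, 10.6 in ΔmiR-18 and 15.9 in wild type. The mean log2 difference was 8.91 with 1 nRPM added to each row (exact permutation p = 0.0179). It was 9.48 with 0.5 nRPM added and 7.16 with 5 nRPM, so its size depends on the pseudocount. The arm is lost with the deleted hairpin, so this ratio had to rise unless the lower row fell as far. Its p-value therefore restates the genotype and is no independent support.

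Against the X-linked partner arm, a comparison added after the values had been seen, the lower row varied less between the groups. The lower row over miR-92a-2-5p was 59.7 in the full deletion, 60.9 in ΔmiR-17,18,92 and 65.8 in ΔmiR-92. It was 90.6 in ΔmiR-17,18, 195.4 in ΔmiR-17, 83.8 in ΔmiR-19, 110.5 in ΔmiR-18 and 126.9 in wild type. The deleted libraries, at 62.1 ± 3.27, lay below all intact ones, at 121.4 ± 44.7 (SD, n = 3 and 5), with a mean log2 difference of -0.90 (exact permutation p = 0.0357). Leaving out any 1 library other than ΔmiR-17 raised this p above 0.05, to at most 0.0952 by the exact permutation test. For the higher row, the ratio to miR-92a-2-5p was 3.91 to 4.15 where miR-92 was deleted and 497.9 to 1179 where it was intact.

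**Figure D3:**
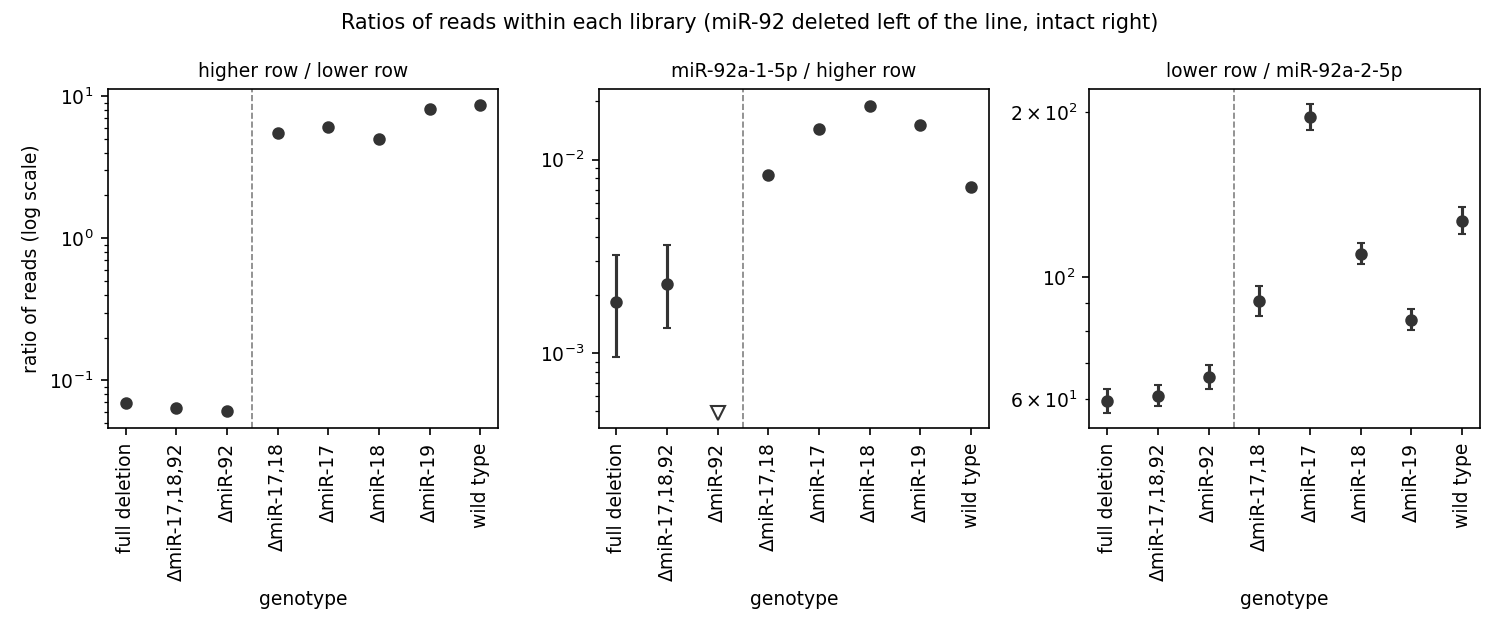
Ratios of reads within each library on log axes, of the higher row to the lower row (left), of miR-92a-1-5p to the higher row (middle) and of the lower row to miR-92a-2-5p (right), with miR-92 deleted libraries left of the dashed line and 95% counting intervals as bars. The open triangle in the middle panel is drawn at 3 reads, since ΔmiR-92 had 0 reads of miR-92a-1-5p. In all 3 panels the deleted libraries lie below the intact ones.

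The members also varied among the 5 libraries that kept miR-92, by 3.31-fold for the higher row, 2.09-fold for the lower row and 4.18-fold for miR-92a-1-5p from the lowest to the highest library. ΔmiR-17,18 was the lowest of the 5 for all 3 members. It held 0.302 of the wild-type level of the higher row, 0.478 of the lower row and 0.348 of miR-92a-1-5p.

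The single deletions that leave miR-92 in place differed by member. ΔmiR-17 held 0.582 of wild type for the higher row and 0.838 for the lower row, but 1.16 for miR-92a-1-5p. ΔmiR-18 held 0.343, 0.601 and 0.903 of wild type for the higher row, the lower row and miR-92a-1-5p. ΔmiR-19 held 0.697, 0.751 and 1.45 in the same order. Wild type was thus the highest intact library for both rows of miR-92a-3p and ΔmiR-19 the highest for miR-92a-1-5p, and without replicates these ratios have no error between embryos.

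The level of the partner arm of Mir92-1 can also be given as a share of the higher row, whose locus is not given, so that the share is not a known balance of the strands of 1 hairpin. miR-92a-1-5p equalled 0.832% of the higher row in ΔmiR-17,18, 1.45% in ΔmiR-17, 1.51% in ΔmiR-19, 1.90% in ΔmiR-18 and 0.723% in wild type. These shares covered a 2.63-fold range, with wild type the lowest. In the deleted libraries the arm equalled 0.185% of the higher row in the full deletion, against 0.228% in ΔmiR-17,18,92, while ΔmiR-92 had 0 reads of the arm beside 6090 of the higher row.

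Counting members at 0.5 of wild type or below, the full deletion had 3 of 3 (background 10.9% of the 329 microRNAs averaging 100 nRPM or more), ΔmiR-17,18,92 had 3 of 3 (10.3%) and ΔmiR-92 had 2 of 3 (7.9%). ΔmiR-17,18, which keeps miR-92, also had 3 of 3 (14.6%), and ΔmiR-18 had 1 of 3 (7.6%), the higher row. ΔmiR-17 (5.78%) and ΔmiR-19 (6.99%) had 0 of 3. The lower row was the member of ΔmiR-92 above this limit, at 0.623 of wild type, whereas the full deletion held 0.427 and ΔmiR-17,18,92 held 0.370 of it. The deleted hairpin encodes miR-92a-1-5p and miR-92a-3p, so the counts where miR-92 was deleted restate the genotype in part and are no enrichment. With a mean of 0.836 nRPM in the deleted libraries, miR-92a-1-5p passed the filter of 100 nRPM only through the intact ones.

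The terms of the other families in the limma model called none of the members, against 0.726% of all microRNAs for the miR-17 term, 0.363% for the miR-18 term and 0.726% for the miR-19 term. For the miR-18 term the estimate was -0.89 ± 0.31 for the higher row (unadjusted p = 0.0209, adjusted p = 0.719 by limma). It was -0.61 ± 0.25 for the lower row (unadjusted p = 0.0442, adjusted p = 0.988 by limma) and -0.29 for miR-92a-1-5p. The miR-17 term was -0.13 for both rows of miR-92a-3p and 0.08 for the arm, and the miR-19 term was 0.22, -0.06 and 0.75 for the higher row, the lower row and the arm.

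miR-92a-3p shares its seed with 5 other guides of the table, which come from hairpins on chromosomes 3, 4, 5 and X. They are printed to show how much beyond the seed, in capitals, each has in common with miR-92a-3p. Over the first 21 bases, miR-92b-3p differs from it at 2 positions and miR-25-3p at 3, whereas miR-367-3p, miR-32-5p and miR-363-3p differ at 9, 10 and 11.
mmu-miR-92b-3p: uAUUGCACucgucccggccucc
mmu-miR-25-3p: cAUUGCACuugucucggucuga
mmu-miR-367-3p: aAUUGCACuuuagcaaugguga
mmu-miR-32-5p: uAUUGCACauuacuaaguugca
mmu-miR-363-3p: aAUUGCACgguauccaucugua

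Summed over both rows and these 5 guides, the seed family held 45173 nRPM in the full deletion, 55547 in ΔmiR-17,18,92 and 57423 in ΔmiR-92. It held 114087 nRPM in ΔmiR-17,18, 197329 in ΔmiR-17, 199868 in ΔmiR-19, 135529 in ΔmiR-18 and 276167 in wild type. The family thus kept 16.4%, 20.1% and 20.8% of its wild-type level in the full deletion, ΔmiR-17,18,92 and ΔmiR-92, whereas the 2 rows of miR-92a-3p together kept 4.71%, 4.06% and 6.82%. These sums may hold reads 2 times, since the counting of reads that map to both loci is not given.

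The make-up of the family differed between the libraries as well, a difference given here by its values with no test. Both rows made up 23.2%, 16.3% and 26.4% of the family in the full deletion, ΔmiR-17,18,92 and ΔmiR-92, against 62.5% in ΔmiR-17,18, 68.6% in ΔmiR-17, 78.2% in ΔmiR-19, 60.7% in ΔmiR-18 and 80.6% in wild type. miR-25-3p, from the miR-106b~25 cluster, was the largest component where miR-92 was deleted, with 54.9%, 66.1% and 52.5% in the full deletion, ΔmiR-17,18,92 and ΔmiR-92. It made up 27.8% in ΔmiR-17,18, 25.6% in ΔmiR-17, 17.1% in ΔmiR-19, 31.1% in ΔmiR-18 and 15.4% in wild type, the lowest of the intact libraries. The family as a whole took 4.77%, 6.50% and 6.11% of reads in the deleted libraries and 10.8% to 24.9% in the intact ones.

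**Figure D4:**
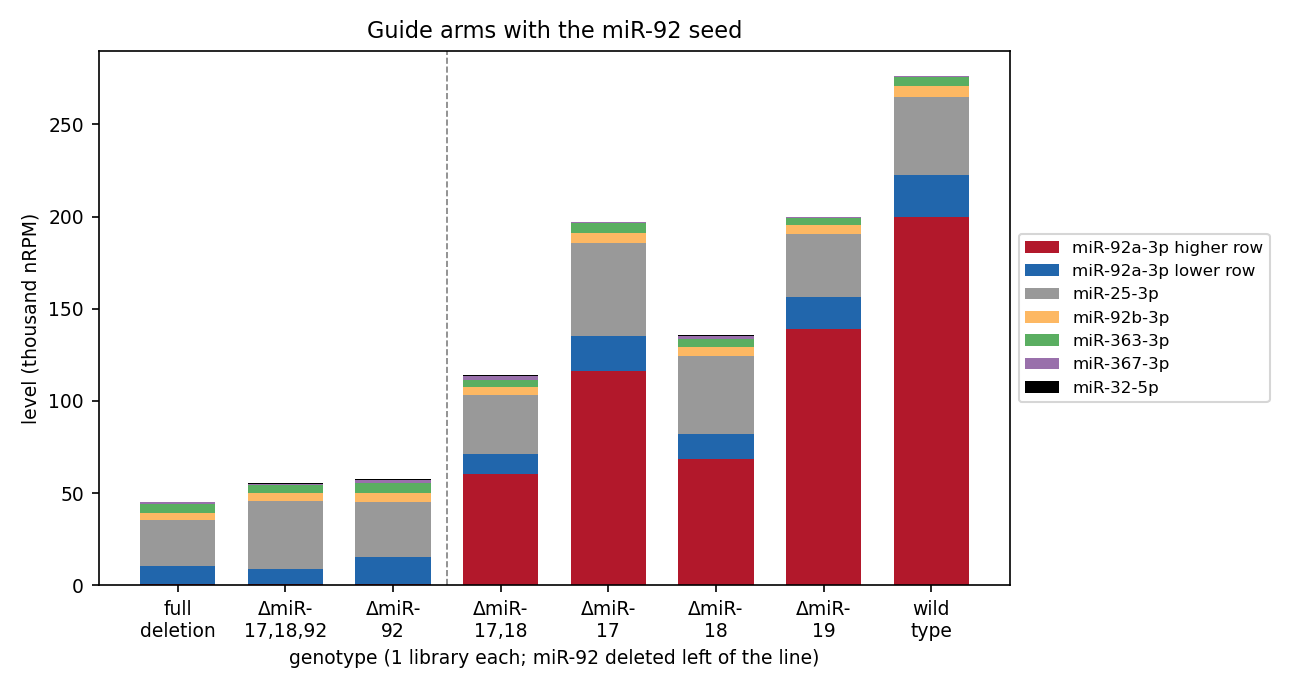
Stacked bars of the level (nRPM) of each guide that shares the seed of miR-92a-3p, 1 bar per library from 0, with miR-92 deleted libraries to the left. The 3 deleted bars reach 45173 to 57423 nRPM, below the 114087 to 276167 nRPM of the intact ones, and most of the difference lies in the higher row of miR-92a-3p.

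Of the 5 other guides of the seed family, 0 were called by the miR-92 term, against 0.363% of all microRNAs tested, a share at which a list of this size is not set apart by a count of 0. Their median log2 change was -0.11, against 0.01 over all microRNAs tested. miR-25-3p averaged 30564 ± 5975 nRPM where miR-92 was deleted and 40224 ± 7485 nRPM where it was intact (SD, n = 3 and 5), with a term of -0.32 ± 0.24. miR-92b-3p, the closest in sequence, averaged 4373 ± 529 nRPM in deleted and 5024 ± 555 nRPM in intact libraries. miR-363-3p, from the same X-linked cluster as Mir92-2, averaged 4940 ± 435 nRPM in deleted and 4605 ± 679 nRPM in intact libraries.

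Partner arms and neighbouring hairpins were counted in the same way, and their counts of 0 are likewise not set apart from the 0.363% called over all microRNAs tested. Of 6 listed partner arms of the seed family, 5 were in the table, 4 passed the filter on low values and 0 were called, with a median of 0.59. Of 10 arms from the chromosome 14 cluster, 0 were called by the miR-92 term, with a median of -0.30, and of 9 from the X-linked cluster, 0 were called, with a median of 0.03. The lowest adjusted p in these lists was 0.990 by limma.

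Likeness of pattern was measured as the SD of the log2 ratio to a member across libraries, over 328 microRNAs averaging 100 nRPM or more, where a smaller SD means a closer pattern. Over all 8 libraries, the nearest to the higher row was miR-92a-1-5p with an SD of 1.36, well ahead of miR-450a-5p with 2.95, and the lower row came at position 10 with 3.45. The nearest to the lower row were miR-532-5p with 0.22, miR-1198-5p with 0.28 and miR-292-5p with 0.30, while the X-linked arm miR-92a-2-5p came at position 116 with 0.59, near the median of 0.66.

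Over the 5 libraries that kept miR-92, the neighbours changed. The higher row was then nearest to miR-410-5p with 0.16 and miR-292-5p with 0.19, and its own lower row came 5th with 0.35, while miR-92a-1-5p came at position 68 with 0.60. The lower row was nearest to miR-409-3p with 0.08. miR-92a-1-5p was nearest to miR-299-5p and miR-299b-3p, whose SDs were identical at 0.24, so they may not be separate neighbours. The likeness of the higher row and miR-92a-1-5p over 8 libraries thus rests on the 3 libraries in which both were low.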

How the data were processed

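Per the submitters' processing notes, reads were processed with featureCounts (Subread 1.4.2), STAR 2.2.0 and SAMtools 0.1.19 on mm9. Parameters are not given in the sources used here. RNA was extracted with Trizol, per the labels' protocols. The deposited signal values are reads divided by a size factor per library: 100% of them were whole multiples of what 1 read is worth, within 0.001 reads. Here they were multiplied by 0.1159, which gives nRPM. Of 977 accessions, 57 were repeated. Of repeats with totals within 10% of each other, the row with the higher total was kept and the others were dropped. This left 986 rows, with 8 accessions, miR-92a-3p among them, kept as separate rows. Genotypes came from the labels. limma 3.58.1 (trend) was fitted to log2(nRPM + 1) of microRNAs averaging 10 nRPM or more, with a threshold of 0.05 after Benjamini-Hochberg adjustment, and edgeR 4.0.16 and DESeq2 1.42.0 were run on the recovered reads. The pseudocount understates changes of low microRNAs. The fits were tested on simulated data. The members and lists were chosen with earlier results of these data known. The named microRNAs are the members, the fixed lists and, by rule, the 5 nearest in pattern to each member, of which those that bear on a member are given. Other scalings, pseudocounts, filters and designs, and leaving out each library, were tried as alternatives.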

Additional observations from a re-analysis of the deposited data

Results flagged for a closer look

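The library of undetermined reads, which has no genotype and entered no comparison, held all 3 members above the limit that a count of 0 allows. The higher row of miR-92a-3p had 256068 reads there (8.47% of the library), the lower row had 88201 reads (2.92%) and miR-92a-1-5p had 1530 reads. Within it, the higher row over the lower row was 2.90, below the 4.96 to 8.69 of the intact libraries and above the 0.0609 to 0.0696 of the deleted ones. No single library stood apart from the other intact ones for any member in Dixon's test, in which chance flags about 1 in 20 groups.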

How the results depend on the processing

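The calls for the higher row and miR-92a-1-5p, and the lack of one for the lower row, kept their direction and their side of the threshold in all 57 limma alternatives. The number of microRNAs called by the miR-92 term was 2 in all 19. Of the exact tests, 74 alternatives kept direction and side and 8 lost the threshold. Of these 8, 1 was the ratio of the higher row to miR-92a-1-5p with a pseudocount of 5 nRPM, at 0.52 (exact permutation p = 0.268). The other 7 left out 1 library from the ratio of the lower row to miR-92a-2-5p, which ranged from -1.01 to -0.71. Leaving out 1 library moved the miR-92 term between -7.16 and -6.50 for the higher row, -0.54 and -0.26 for the lower row, and -10.19 and -8.23 for miR-92a-1-5p. The term of miR-92a-1-5p was -10.26 with a pseudocount of 0.5 nRPM and -7.68 with 5 nRPM, as the arm is near 0 reads where deleted. Scaling by plain totals shifted the median of all microRNAs by 0.20 (log2) and left the lower row at -0.42 (exact permutation p = 0.196). Of 84 alternatives of ratios to wild type, 52 moved beyond counting error and none crossed 0.5. No paired analysis was possible because each genotype has 1 library and the libraries share no replicate number beyond it.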
